A study of Arabidopsis thaliana with 45 samples.

Results

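The windows described here are the CG differentially methylated regions (DMRs) of S2γ30 against P0γ30, the Arabidopsis plants of the second offspring generation and of the parent generation that were grown under the same gamma dose rate of 30 mGy/h. They are all rows of the deposited table for this pair of groups, with each window of 200 bp counted once. The table holds 279 CG rows, which came to 272 windows because 7 windows were listed for more than 1 transposable element (TE). Over the 10 tables of the series that hold windows, there were 3273 CG windows at 2331 different positions. The study comprised 9 groups of 5 rosette samples each, since each of the generations P0, S1 and S2 was grown without added radiation (γ0) and at dose rates of 30 (γ30) and 110 mGy/h (γ110) from a caesium source. S2γ30 plants grew from seeds of S1 plants and these from seeds of P0 plants, with each generation irradiated at 30 mGy/h, whereas P0γ30 plants came from a seed stock with no history of irradiation. Both groups are Columbia plants irradiated for 14 days, so that they share the current treatment and differ in the irradiation of their ancestors and in their generation. Plants were 14 days old at the start by the sample labels and 7 days old by the methods of the study. Each group has 1 deposited methylation level per window, without values per sample and without coverage, so neither the spread between the 5 samples nor the sequencing depth of a level is known here, and no interval or test could be given for any level or difference below.

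In plants, cytosines followed by guanine (CG sites) are methylated in the bodies of many moderately and steadily transcribed genes and in TEs. CG methylation is copied onto the new strand after replication by MET1 with the help of the VIM proteins and is removed by DNA glycosylases such as ROS1. Methylation in the CHG and CHH contexts, where H is A, C or T, depends on other methyltransferases and is mostly found in TEs. The level of a window is the fraction of methylated reads over its sites, from 0 to 1.

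The reference sequences of the windows that carry the main results are given first, all on the plus strand of TAIR10.1, whose 5 chromosomes have the lengths of the TAIR10 build of the study. CG sites are in capitals. The 4 windows with the largest increase and decrease over the genome and in the first 6 Mb of chromosome 5 hold 1 CG site each, so the level there is that of a known cytosine pair.
AT2G42270 exon, largest increase, chr2:17609601-17609800: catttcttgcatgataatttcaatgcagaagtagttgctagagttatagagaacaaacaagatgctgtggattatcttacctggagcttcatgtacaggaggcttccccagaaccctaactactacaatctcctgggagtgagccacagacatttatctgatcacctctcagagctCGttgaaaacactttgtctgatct
EDR1 exon, largest decrease, chr1:2776401-2776600: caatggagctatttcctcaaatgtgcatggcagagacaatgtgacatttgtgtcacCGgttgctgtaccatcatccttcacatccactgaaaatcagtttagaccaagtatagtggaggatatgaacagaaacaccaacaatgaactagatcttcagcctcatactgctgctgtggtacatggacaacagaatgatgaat
TPR16, largest increase in the first 6 Mb of chromosome 5, chr5:4031601-4031800: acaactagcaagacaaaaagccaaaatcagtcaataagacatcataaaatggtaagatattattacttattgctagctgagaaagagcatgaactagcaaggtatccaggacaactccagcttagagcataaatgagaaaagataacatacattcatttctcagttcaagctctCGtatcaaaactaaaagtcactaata
AT5G15680 intron, largest decrease in the first 6 Mb of chromosome 5, chr5:5110001-5110200: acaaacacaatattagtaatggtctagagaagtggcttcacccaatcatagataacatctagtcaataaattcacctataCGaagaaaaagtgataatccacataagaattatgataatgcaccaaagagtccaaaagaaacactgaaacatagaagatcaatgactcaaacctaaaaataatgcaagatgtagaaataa
Windows with many sites are shown for contrast, namely the largest increase and the largest decrease in a TE, the window with most CG sites, and the window that was listed in both the CG and the CHG context.
AT4TE31075 and AT4TE31080, 7 sites, chr4:7154601-7154800: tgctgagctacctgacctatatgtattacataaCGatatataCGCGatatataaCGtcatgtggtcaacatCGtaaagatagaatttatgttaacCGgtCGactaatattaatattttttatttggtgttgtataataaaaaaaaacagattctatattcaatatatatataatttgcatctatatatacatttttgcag
AT4TE34260 and AT4TE34265, 6 sites, chr4:7810801-7811000: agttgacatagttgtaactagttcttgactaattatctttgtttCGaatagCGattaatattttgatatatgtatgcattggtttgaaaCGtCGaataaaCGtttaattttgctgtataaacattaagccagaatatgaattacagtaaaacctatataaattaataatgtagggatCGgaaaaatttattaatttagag
AT5G03490 exon, 9 sites, chr5:872601-872800: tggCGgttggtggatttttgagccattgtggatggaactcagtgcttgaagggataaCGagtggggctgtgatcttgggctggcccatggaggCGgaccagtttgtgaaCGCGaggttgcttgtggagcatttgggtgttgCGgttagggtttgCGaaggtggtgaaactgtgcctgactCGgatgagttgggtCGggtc
Near AT5G05830, CG and CHG, chr5:1755001-1755200: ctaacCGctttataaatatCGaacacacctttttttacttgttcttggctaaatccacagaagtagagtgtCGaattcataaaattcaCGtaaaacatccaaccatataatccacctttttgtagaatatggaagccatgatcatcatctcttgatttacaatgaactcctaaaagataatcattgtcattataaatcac
The last set lies in genes that act on DNA methylation, DNA repair or transcription elongation.
ROS1, chr2:15310601-15310800: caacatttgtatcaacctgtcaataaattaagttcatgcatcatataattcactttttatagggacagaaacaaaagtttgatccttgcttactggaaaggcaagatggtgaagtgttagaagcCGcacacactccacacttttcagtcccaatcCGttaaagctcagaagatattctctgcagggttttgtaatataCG
VIM2, chr1:24592401-24592600: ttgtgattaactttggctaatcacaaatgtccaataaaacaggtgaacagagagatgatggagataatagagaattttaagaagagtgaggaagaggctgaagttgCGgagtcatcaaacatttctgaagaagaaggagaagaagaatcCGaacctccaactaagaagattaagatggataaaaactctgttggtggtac
BRCA2B, chr5:238601-238800: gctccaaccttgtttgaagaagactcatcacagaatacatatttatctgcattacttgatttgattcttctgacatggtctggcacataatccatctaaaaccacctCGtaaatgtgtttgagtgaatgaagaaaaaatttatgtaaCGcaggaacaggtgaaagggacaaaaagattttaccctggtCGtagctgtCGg
SMC5, chr5:5197801-5198000: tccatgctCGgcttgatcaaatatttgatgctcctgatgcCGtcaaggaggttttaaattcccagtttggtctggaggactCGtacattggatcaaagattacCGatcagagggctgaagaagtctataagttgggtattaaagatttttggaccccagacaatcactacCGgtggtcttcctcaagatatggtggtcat
RECQL4B, chr1:22435801-22436000: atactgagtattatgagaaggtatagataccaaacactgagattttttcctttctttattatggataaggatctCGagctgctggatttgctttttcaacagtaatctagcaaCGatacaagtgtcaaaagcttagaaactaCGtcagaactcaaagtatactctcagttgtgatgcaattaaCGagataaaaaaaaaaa
VIP4, chr5:24606001-24606200: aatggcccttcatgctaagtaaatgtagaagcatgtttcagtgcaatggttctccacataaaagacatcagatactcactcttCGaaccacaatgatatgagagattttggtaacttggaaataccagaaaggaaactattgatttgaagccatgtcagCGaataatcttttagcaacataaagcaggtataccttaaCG

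Most listed windows gained methylation in S2γ30, and most of those that gained it were almost unmethylated in P0γ30. Of the 272 windows, 170 (62.5%) were hypermethylated and 102 (37.5%) hypomethylated in S2γ30. The 272 windows are 0.0480% of the 566882 windows of 200 bp with a CG on the 5 chromosomes, with 0.0300% for the hypermethylated and 0.0180% for the hypomethylated windows. How many windows the authors tested is not used here, so these shares are relative to the genome sequence. All windows had to pass the difference of 20% set by the authors, and the size of a difference is therefore no finding. The smallest listed increase was 0.205 in S2γ30 against 0.00533 in P0γ30, in an exon of the F-box gene AT3G56780. The smallest decrease was 0.484 in S2γ30 against 0.685 in P0γ30, in LCL1, a MYB-like gene of the circadian clock family.

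The hypermethylated windows had a median level of 0.514 in S2γ30, with quartiles of 0.348 and 0.738, and of 0.0211 in P0γ30, with quartiles of 0.00779 and 0.284. The hypomethylated windows had a median level of 0.0663 in S2γ30, with quartiles of 0.0180 and 0.426, and of 0.566 in P0γ30, with quartiles of 0.413 and 0.840. With low defined as under 0.1 and high as 0.5 and over, 113 of the 170 hypermethylated windows (66.5%) were low in P0γ30, and 102 of them were under 0.05. Of these 113, 34 were high and 79 intermediate in S2γ30. Another 33 windows were high in S2γ30 and intermediate in P0γ30, and 20 were high in both groups. In the hypomethylated windows the same classes were met in the other direction. Of the 102, 53 (52.0%) were low in S2γ30, 46 of them below 0.05, and these had been intermediate in P0γ30 in 40 windows and high in 13. A further 32 windows were intermediate in S2γ30 and high in P0γ30, and 12 were high in both. The level was exactly 0 in S2γ30 in 4 windows and in P0γ30 in 8 windows. The plot of both levels shows these classes as a dense column of points at the left edge and a row along the bottom.

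**Figure D1:**
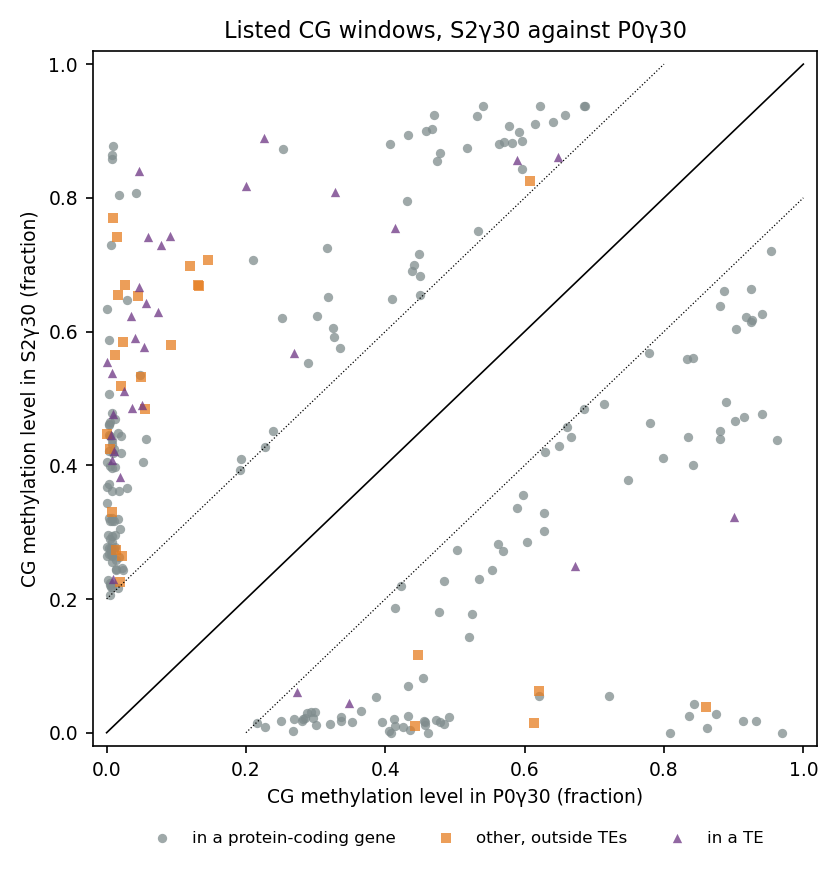
CG methylation level of each of the 272 listed windows in S2γ30 (vertical axis, fraction) against P0γ30 (horizontal axis, fraction), with markers for windows in a TE, in a protein-coding gene outside TEs, and elsewhere. The solid line marks equal levels and the dotted lines a difference of 0.2, so the empty band between them is the authors' threshold. Of the 170 windows above the band, 113 lie under 0.1 in P0γ30, and of the 102 below it, 53 lie under 0.1 in S2γ30.

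The 10 largest increases reached at least 0.729 in S2γ30 at windows with at most 0.0595 in P0γ30. The largest was in an exon of AT2G42270, annotated as a U5 small nuclear ribonucleoprotein helicase, a component of the spliceosome, with 0.878 in S2γ30 and 0.00862 in P0γ30. The nearest gene in the table is BHLH130, and the listed and the overlapped gene also differ for other windows below. Next came AT3G27870, an ATPase of the E1-E2 type, with 0.864 in S2γ30 and 0.00746 in P0γ30. TPR16, a DnaJ protein with tetratricopeptide repeats, had 0.858 in S2γ30 and 0.00763 in P0γ30. An intron of VLN4, which encodes the actin-binding protein villin 4, had 0.805 in S2γ30 and 0.0172 in P0γ30. AT1G17930, a plant mobile domain gene, had 0.807 in S2γ30 and 0.0420 in P0γ30. RBOHI, named for the NADPH oxidases that produce superoxide at the plasma membrane, had 0.729 in S2γ30 and 0.00687 in P0γ30. The remaining 4 lay in TEs or between genes and are described further below.

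The 10 largest decreases mirrored this picture, with high levels in P0γ30 and levels of at most 0.0550 in S2γ30. EDR1, a protein kinase that restrains defence responses, had no methylation in S2γ30 (0) and 0.969 in P0γ30. FBH2, a basic helix-loop-helix factor that activates the flowering gene CONSTANS, had 0.0174 in S2γ30 and 0.932 in P0γ30. An intron of the ARM repeat gene AT5G15680 had 0.0168 in S2γ30 and 0.914 in P0γ30. The gene listed as 4CLL6, an AMP-dependent synthetase and ligase, had 0.00763 in S2γ30 and 0.861 in P0γ30. AT2G47090, a nucleic acid binding protein, had 0.0275 in S2γ30 and 0.875 in P0γ30. AT1G72420, related to an assembly factor of mitochondrial complex I, had 0 in S2γ30 and 0.809 in P0γ30. GF14 PHI, a phosphoprotein-binding adaptor, had 0.0427 in S2γ30 and 0.843 in P0γ30. XI-F, a class XI myosin, contributed the only window of these 10 with 2 CG sites, at 0.0550 in S2γ30 and 0.721 in P0γ30. The other 2 lay on chromosome 5, in an intron of the DDT domain gene AT5G08630 (0.0256 in S2γ30, 0.836 in P0γ30) and beside AT5G05090 (0.0380 in S2γ30, 0.860 in P0γ30).

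Among the listed windows, the median size of the difference went down with the number of CG sites in the window, from 1 to 4 sites. A window held a median of 3 CG sites, with quartiles of 2 and 4 and a highest value of 9, against a median of 4 over all genome windows with a CG. Windows with 1 site were 33, with a median difference of 0.651 regardless of sign, and 24 of them were hypermethylated. With 2 sites there were 83 windows and a median difference of 0.423, with 3 sites 78 windows and 0.298, and with 4 sites 47 windows and 0.242. At 5 sites the median of 14 windows was 0.299, and 17 windows held 6 sites or more. The product of the difference and the number of sites, which would be 1 where 1 equally covered site had changed fully and the other sites had not, had a median of 0.883 and quartiles of 0.789 and 1.05. It lay between 0.8 and 1.1 in 137 of the 272 windows (50.4%), a range chosen after the values were seen, of which 127 overlapped a protein-coding gene and 9 a TE. Among the 208 windows with 2 to 4 sites it lay in that range in 123 (59.1%). Because a difference of 20% was required, a product under 0.8 could not occur with 4 or more sites. Levels of single sites were not analysed here, so the product does not show which sites differed.

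Larger products than 2 were found in 16 windows and could not occur with 1 or 2 CG sites. Of the 16, 12 were hypermethylated (75%, against 62.5% of all listed windows). In a TE lay 5 (31.25%, against 11.8%) and in a protein-coding gene 4 (25%, against 81.25%), without a test. In the other windows the product was at most 2, which does not tell how many sites differed. The highest product was that of the 7-site window in AT4TE31075 and AT4TE31080, listed for SGR2, with 0.840 in S2γ30 and 0.0468 in P0γ30. The 7-site window listed for LSM7, a gene of an RNA-binding Sm-like protein, had 0.769 in S2γ30 and 0.00926 in P0γ30. The window with most sites, 9, lay in an exon of the UDP-glycosyltransferase gene AT5G03490 and had 0.405 in S2γ30 and 0.0527 in P0γ30. Among the windows of at least 6 sites in this group were also decreases, such as that in AT4TE34260 with 0.323 in S2γ30 and 0.901 in P0γ30.

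**Figure D2:**
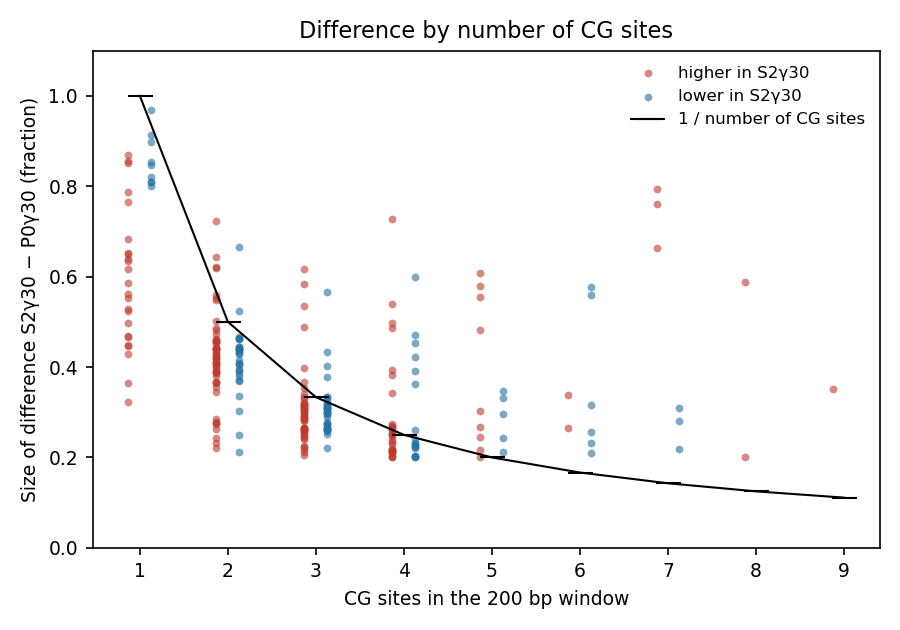
Size of the difference in level between S2γ30 and P0γ30 (vertical axis, fraction, sign removed) by the number of CG sites in the window (horizontal axis), with 1 point for each of the 272 windows, hypermethylated to the left and hypomethylated to the right of each number. The line gives 1 divided by the number of sites. Points gather near the line at 2 to 4 sites, where 123 of 208 products of difference and sites lie between 0.8 and 1.1, and lie above it at 5 sites and more, where the threshold of 0.2 is itself above or at the line.

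Few of the listed windows were neighbours. Joining windows of the same direction within 200 bp gave 267 regions, of which 5 held 2 windows, all of them hypermethylated. These were the pairs at LSM7, AT3G27490, AT3G29634, SGR2 and AT5G05830. The pair at LSM7 had 0.809 and 0.769 in S2γ30, against 0.328 and 0.00926 in P0γ30. At AT3G29634, the pair had 0.565 and 0.655 in S2γ30, against 0.0124 and 0.0164 in P0γ30. The pair at AT3G27490 overlapped 3 TEs and had 0.624 and 0.485 in S2γ30, against 0.0354 and 0.0370 in P0γ30. All 5 pairs lay outside protein-coding genes.

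Within a gene, nearby windows also moved in opposite directions. SIR, the sulfite reductase of sulfate assimilation, had a hypomethylated window with 0.0303 in S2γ30 and 0.300 in P0γ30, and close to it a hypermethylated window with 0.883 in S2γ30 and 0.570 in P0γ30. AT5G01660, annotated as an influenza virus NS1A-binding protein, had 0.0247 in S2γ30 and 0.432 in P0γ30 in an exon window, and 0.265 in S2γ30 and 0.00809 in P0γ30 in another. AT2G36720, a protein with acyltransferase and PHD-type zinc finger domains, had 0 in S2γ30 and 0.462 in P0γ30 in a window, and 0.651 in S2γ30 and 0.317 in P0γ30 in another. XI-F was the only gene overlapped by 2 windows of the same direction. Its second window had 0.411 in S2γ30 and 0.799 in P0γ30, and an antisense RNA gene overlaps both windows. Of genes that were listed for 2 windows, MYB3R-5, a MYB factor that represses cell cycle genes, was hypomethylated in its own exon with 0.178 in S2γ30 and 0.524 in P0γ30, and the second window lay in PRT6, a ubiquitin ligase of the N-degron pathway, with 0.477 in S2γ30 and 0.941 in P0γ30.

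By their overlap with the annotation, 221 of the 272 windows (81.25%) lay in a protein-coding gene, against 58.6% of all genome windows with a CG. A further 49 (18.0%) lay between genes, against 30.1% of all genome windows with a CG. Another kind of gene or a pseudogene held 2 (0.735%), against 11.3%. Coding exons were touched by 199 windows, introns by 171, 3′ UTRs by 19 and 5′ UTRs by 3. The shares of these gene parts among all genome windows were not computed, so these counts have no background. In protein-coding genes, 127 windows were hypermethylated and 94 hypomethylated. The hypermethylated ones had a median of 0.449 in S2γ30 and 0.0180 in P0γ30, and the hypomethylated ones 0.112 in S2γ30 and 0.566 in P0γ30. Between genes, 41 windows were hypermethylated and 8 hypomethylated, and the hypermethylated ones had a median of 0.584 in S2γ30 and 0.0370 in P0γ30.

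The classes listed in the table gave another picture, with 102 gene body windows, 97 promoter-associated windows and 73 windows with neither label. They went with the strand of the gene. Of the 100 windows that overlap protein-coding genes of the minus strand alone, 96 were listed as gene body. Of the 115 windows in genes of the plus strand alone, 57 were listed as promoter-associated, 58 had neither label, and 0 were listed as gene body. The promoter-associated class thus held 61 windows inside a protein-coding gene and 36 between genes. Those between genes were hypermethylated in 30 windows and hypomethylated in 6, and those inside genes in 34 and 27. In the text, the position of a window is therefore that of the annotation, and the listed gene is named only where it helps to find the window.

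In total, the windows overlapped 223 of 27444 protein-coding genes (0.813%). Among the 66 genes matched for DNA repair and damage response, 3 were overlapped, 1 by a hypermethylated and 2 by hypomethylated windows. BRCA2B, a gene of homologous recombination, had 0.218 in S2γ30 and 0.00778 in P0γ30. SMC5, a subunit of the SMC5/6 complex that acts in repair between sister chromatids, had 0.355 in S2γ30 and 0.598 in P0γ30 in an exon window listed for PAM1. A window listed for SMC5 itself lay in the neighbouring gene AT5G15910, with 0.229 in S2γ30 and 0.00265 in P0γ30. RECQL4B, a DNA helicase of the RecQ family, had 0.187 in S2γ30 and 0.414 in P0γ30. NTH2, a DNA glycosylase gene which was not in the list and was named after its values were seen, had 0.398 in S2γ30 and 0.0120 in P0γ30.

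Among the 42 genes matched for DNA methylation and demethylation, 2 were overlapped, both by hypomethylated windows. ROS1, the glycosylase that removes methylated cytosines, had 0.0215 in S2γ30 and 0.285 in P0γ30 in a window with 3 CG sites. VIM2, a methylcytosine-binding protein needed for the maintenance of CG methylation, had 0 in S2γ30 and 0.408 in P0γ30 in a window with 2 CG sites. VIM2 has close copies elsewhere in the genome, so reads could be shared between them, and that window is uncertain. The other 40 genes matched were not overlapped.

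All 4 overlapped genes among the 40 matched for chromatin and transcription elongation were hypermethylated in S2γ30. VIP4 and VIP5, subunits of the Paf1 complex that travels with RNA polymerase II, had 0.317 and 0.440 in S2γ30, against 0.0112 and 0.0571 in P0γ30. CPL2, a phosphatase of the tail of RNA polymerase II, had 0.367 in S2γ30 and 0 in P0γ30. SLK2, a transcriptional co-regulator, had 0.247 in S2γ30 and 0.0227 in P0γ30. A window listed for the Mediator subunit MED19A lay in AT5G12220, with 0.294 in S2γ30 and 0.00706 in P0γ30. Of 21 splicing genes, 2 were overlapped and hypermethylated. PRP19B, a ubiquitin ligase associated with the spliceosome, had 0.316 in S2γ30 and 0.00809 in P0γ30, and RS40, a splicing factor rich in arginine and serine, had 0.392 in S2γ30 and 0.191 in P0γ30. Of 22 flowering and clock genes, the clock repressor APRR7 was overlapped, with 0.867 in S2γ30 and 0.478 in P0γ30. The lists are small and were chosen with results of these data known, so neither the overlap nor a shared direction of their genes is independent evidence. Their shares of overlapped genes, from 4.55% to 10%, were not tested against the 0.813% of all genes.

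Of the groups found by words in the gene descriptions, kinases formed the largest group, with 17 of 1388 genes overlapped (1.22%, against 0.813% of all genes), 10 of them by hypermethylated and 7 by hypomethylated windows. The hypermethylated ones included KIN10, the catalytic subunit of the energy-sensing kinase SnRK1, with 0.624 in S2γ30 and 0.303 in P0γ30. MAPKKK6, a kinase upstream of MAP kinase cascades, had 0.796 in S2γ30 and 0.431 in P0γ30. The kinase gene listed as WAKL20 had 0.872 in S2γ30 and 0.254 in P0γ30. Ribosomal proteins were overlapped in 3 of 344 genes (0.872%), a share near that of all genes, each by a hypomethylated window, and the 60S protein gene AT5G02440 had 0.0698 in S2γ30 and 0.432 in P0γ30. Myosin descriptions gave 3 of 88 genes (3.41%), with 1 hypermethylated window and 3 hypomethylated ones, 2 of which lay in XI-F. Helicases were overlapped in 3 of 128 genes (2.34%), of which RECQL4B was the hypomethylated one. The remaining words had shares below that of all genes. Ubiquitin genes were overlapped in 2 of 361 (0.554%), both hypermethylated, and transport genes in 2 of 650 (0.308%), both hypomethylated. Pentatricopeptide genes were overlapped in 2 of 262 (0.763%), 1 in each direction. A single gene was overlapped among 653 F-box genes (0.153%), 194 disease resistance genes (0.515%), 337 receptor genes (0.297%) and 374 transcription factor genes (0.267%). For retrotransposon it was 0 of 35. None of these shares was tested.

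In TEs, 32 windows were listed, 28 hypermethylated (87.5%) and 4 hypomethylated, against 142 and 98 among the 240 windows outside TEs. The share of all genome windows that lie in TEs could not be computed. Whether the 32 windows, 11.8% of those listed, are many or few is therefore not known. The hypermethylated TE windows had a median of 0.607 in S2γ30 and 0.0491 in P0γ30, and 21 of the 28 were low in P0γ30. The hypermethylated windows outside TEs had 0.463 in S2γ30 and 0.0181 in P0γ30. Of the 32 windows, 22 lay between genes, with 19 hypermethylated, and the 27 windows that were neither in a TE nor in a gene were hypermethylated in 22, so the direction also went with lying outside genes. TE windows had a median of 2 CG sites against 3 outside TEs. TEs are silenced by methylation in most plant tissues, and most of the TE windows listed here were little methylated in P0γ30.

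The largest increases in TEs were, after AT4TE31075, in AT1TE66645, AT3TE54480, AT3TE63280 and AT1TE36485. AT1TE66645 lies in an intron of ESP, the epithiospecifier protein that directs glucosinolate breakdown towards nitriles, and its window had 0.742 in S2γ30 and 0.0595 in P0γ30. The 7-site window in AT3TE54480 had 0.889 in S2γ30 and 0.226 in P0γ30. AT3TE63280 had 0.743 in S2γ30 and 0.0915 in P0γ30, and AT1TE36485 had 0.729 in S2γ30 and 0.0783 in P0γ30, with 1 CG site each. The 4 decreases had lower levels in S2γ30 but not all were close to 0. AT4TE34260, in an intron of the EF-hand gene AT4G13440, had 0.323 in S2γ30 and 0.901 in P0γ30. AT2TE23310, listed for SERK5, had 0.249 in S2γ30 and 0.672 in P0γ30. AT1TE79090, listed for the tubulin gene TUBA1, had 0.0450 in S2γ30 and 0.348 in P0γ30, and AT1TE25030 had 0.0609 in S2γ30 and 0.274 in P0γ30. The plot of the TE windows shows that the 2 groups of levels are far apart in the upper part and closer in AT2TE06620, with 0.861 in S2γ30 and 0.649 in P0γ30.

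**Figure D3:**
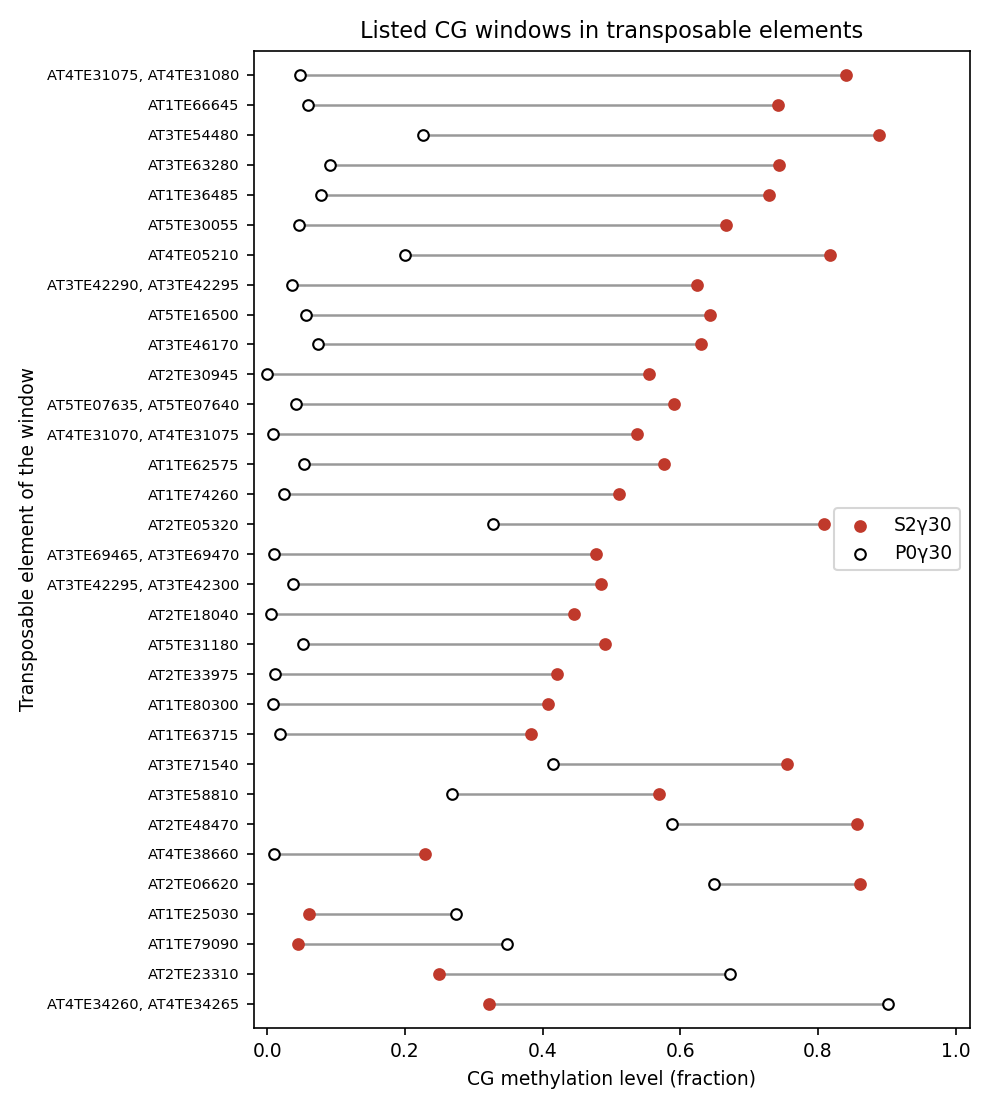
CG methylation level (horizontal axis, fraction) in S2γ30 (filled points) and P0γ30 (open points) for the 32 listed windows in TEs (vertical axis), named as in the table and ordered by the difference, largest increase at the top. In 28 windows the filled point lies to the right of the open point, and in the 4 at the bottom it lies to the left.

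The listed windows were not spread evenly over the genome. Chromosome 5 held 105 windows (38.6%), against 22.7% of the genome windows with a CG, and chromosomes 1 to 4 held 53, 45, 31 and 38. The first 6 Mb of chromosome 5 alone held 73 windows (26.8%), against 5.09% of the genome windows. This is 25.3 listed windows per 10000 windows with a CG, whereas the genome outside this span had 3.70 per 10000 (199 windows) and the remainder of chromosome 5 had 3.21 per 10000 (32 windows). In the first 6 Mb of the other chromosomes, the number was 6 on chromosome 4, 3 on chromosome 3, 12 on chromosome 2 and 10 on chromosome 1. The span was chosen with earlier results of these data known, and its excess over the rest was not tested.

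**Figure D4:**
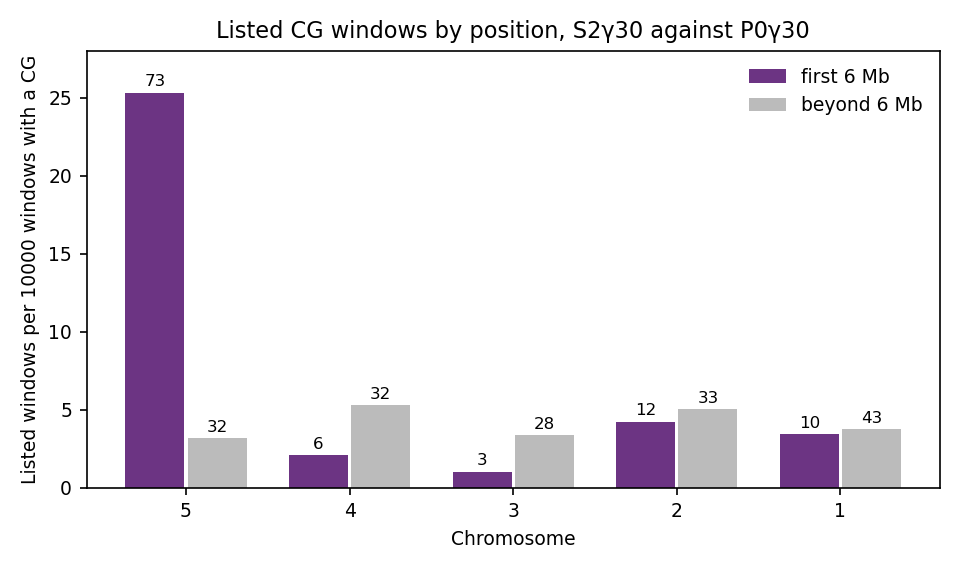
Listed CG windows per 10000 genome windows of 200 bp with a CG (vertical axis) in the first 6 Mb and in the rest of each chromosome (horizontal axis), with the number of listed windows above each bar. The first 6 Mb of chromosome 5 stand at 25.3 per 10000 with 73 windows, and the other 9 bars lie between 1.03 and 5.32.

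Within the span, most windows lay in the first 2 Mb, with 23 in the first Mb, 21 in the second, and 7, 7, 9 and 6 in the following ones. From 6 to 18 Mb there were 8 windows in all. Among the 115 bins of 1 Mb outside the span, the count ran from 0 to 6 with a median of 1, and 28 bins held 0 windows. The median distance between neighbouring windows was 45400 bp in the span and 277600 bp elsewhere. The span is rich in genes, with 76.5% of its windows with a CG in a protein-coding gene against 57.6% elsewhere, and the part of this in the number of listed windows was not tested.

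In the span, 38 windows were hypermethylated and 35 hypomethylated (52.1% hypermethylated), against 132 and 67 elsewhere (66.3%). Both directions were interspersed, and neighbouring windows had the same direction in 29 of 72 cases. Of the 73 windows, 66 lay in a protein-coding gene and 2 in a TE, against 155 and 30 of the 199 elsewhere. The hypermethylated windows in genes of the span had a median of 0.407 in S2γ30 and 0.0141 in P0γ30, and the hypomethylated ones had 0.124 in S2γ30 and 0.530 in P0γ30. Elsewhere, those in genes had 0.461 in S2γ30 and 0.0185 in P0γ30 and 0.112 in S2γ30 and 0.596 in P0γ30. The levels in genes thus lay in a similar range in both parts of the genome, as the medians show, without a test of the difference.

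The densest bin, the first Mb of chromosome 5, began with a window in AT5G01230, a methyltransferase family gene, with 0.561 in S2γ30 and 0.841 in P0γ30. It ended with a window in EXO70A1, a subunit of the exocyst complex that tethers secretory vesicles, with 0.0208 in S2γ30 and 0.412 in P0γ30. In the span, 10 windows differed by over 0.5. The window in TPR16 and those in AT5G15680, AT5G08630 and beside AT5G05090 were given above. The window in the RING/U-box gene AT5G01960 had 0.587 in S2γ30 and 0.00327 in P0γ30. Near AT5G02385, a window had 0.707 in S2γ30 and 0.146 in P0γ30, and 2 TE windows had 0.590 and 0.643 in S2γ30, against 0.0411 and 0.0569 in P0γ30. WAKL20 and the window near AT5G05830 complete the list. EMF1, which acts with Polycomb proteins to repress flowering and was named after its values were seen, had 0.649 in S2γ30 and 0.409 in P0γ30.

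The only CHG window of this comparison was at AT5G05830, at chr5:1755001-1755200 in the same span. Its CHG level was 0.315 in S2γ30 and 0.00549 in P0γ30. The same window had CG levels of 0.741 in S2γ30 and 0.0143 in P0γ30, and the window before it had 0.424 in S2γ30 and 0.00479 in P0γ30. It lies between genes and outside listed TEs. CHG and CG levels were thus both higher in S2γ30. The CHG level was 0 in S1γ30 and 0.0263 in S2γ0. Both levels came from comparisons with S2γ30, so their distance from S2γ30 was required for listing and is no finding. No CHH window was listed.

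The levels of the same windows in other groups could be read only where another table lists them. Those comparisons share the S2γ30 or P0γ30 plants with this one, and a window is listed only where the groups differ, so the levels are given side by side and are not independent evidence. S1γ30 levels were found for 188 of the 272 windows, 182 of them from the comparison of S1γ30 with S2γ30 and 6 from that of P0γ30 with S1γ30 alone. The S1γ30 level differed from that of P0γ30 by a median of 0.0130 and by at most 0.713. S2γ0 levels were found for 202 windows and differed from P0γ30 by a median of 0.0192 and by at most 0.116. For P0γ0, P0γ110 and S1γ0 no level was found. In the plot of the generations, most lines run nearly level from P0γ30 to S1γ30 and change between S1γ30 and S2γ30. For 182 of these 188 windows, the S1γ30 level came from a comparison that lists only windows differing between S1γ30 and S2γ30. The change in the second step was therefore required for their listing. No S1γ30 level was found for 84 windows, so the plot cannot tell in which generation the changes arose.

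For instance, the window in TPR16 had 0.00763 in P0γ30, 0 in S1γ30 and 0.858 in S2γ30, with 0.0336 in S2γ0. That in EDR1 had 0.969 in P0γ30, 0.878 in S1γ30 and 0 in S2γ30, with 0.898 in S2γ0. In AT5G15680, the levels were 0.914 in P0γ30, 0.912 in S1γ30 and 0.0168 in S2γ30, with 0.919 in S2γ0 and 0.880 in S2γ110. CPL2 had 0 in P0γ30, 0.00461 in S1γ30 and 0.367 in S2γ30, with 0 in S2γ0 and 0.00897 in S2γ110. S2γ110 levels were found for 12 windows and differed from P0γ30 by a median of 0.0316 and by at most 0.271. The largest of these was in AT2G26340, listed for PEX10 and named after its values were seen, where S2γ110 had 0.860, close to the 0.856 of S2γ30, with 0.610 in S2γ0, 0.599 in S1γ110 and 0.588 in P0γ30. In the 4 windows given first the level of S2γ30 stands apart from the other groups known, and in AT2G26340 it does not. In those 4 windows, each other level came from a comparison with S2γ30, which lists a window only where the level differs from that of S2γ30. The distance of S2γ30 from the other groups was thus required for listing there and is no finding.

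In 17 of the 188 windows the S1γ30 level differed from that of P0γ30 by at least 0.1. In 6 windows, the 6 read from the comparison of P0γ30 with S1γ30 alone, the S1γ30 level was nearer that of S2γ30. That comparison lists only windows that differ between P0γ30 and S1γ30. The distance of S1γ30 from P0γ30 was therefore required for listing these 6 and is no finding. Their nearness to S2γ30 thus goes with the source of the level. AT5TE16500, near AT5G14140, had 0.0569 in P0γ30, 0.770 in S1γ30 and 0.643 in S2γ30. AT3TE54480 had 0.226 in P0γ30, 0.877 in S1γ30 and 0.889 in S2γ30. The window listed for SCRL5 had 0.443 in P0γ30, 0.00965 in S1γ30 and 0.00938 in S2γ30. 2-Cys Prx B, a chloroplast peroxiredoxin, had 0.395 in P0γ30, 0.0122 in S1γ30 and 0.0157 in S2γ30, with 0.372 in S2γ0 and 0.350 in S1γ110. The S2γ0 level came from a comparison with S2γ30 and the S1γ110 level from one with S1γ30. Their distance from these groups was thus required for listing and is no finding. VDAC5, a gene of the mitochondrial porin family, had 0.334 in P0γ30, 0.659 in S1γ30 and 0.576 in S2γ30. In the kinase gene AT4G23050, listed for IQD22, the levels were 0.216 in P0γ30, 0.00378 in S1γ30 and 0.0142 in S2γ30.

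**Figure D5:**
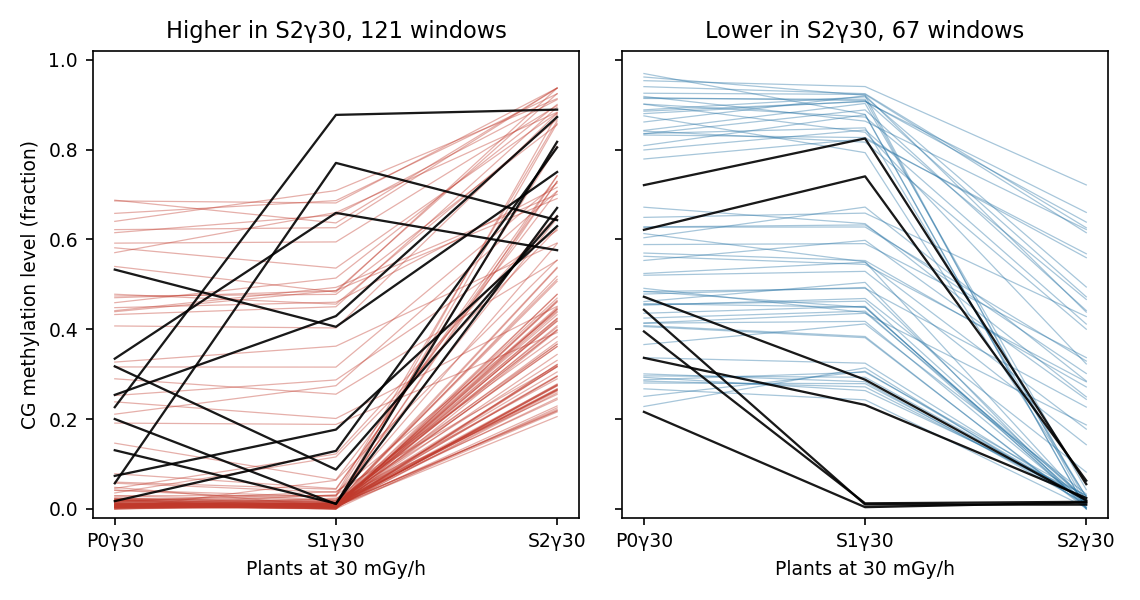
CG methylation level (vertical axis, fraction) in P0γ30, S1γ30 and S2γ30 (horizontal axis) for the 188 listed windows with a known S1γ30 level, in 2 panels, hypermethylated (121 windows) and hypomethylated (67 windows) in S2γ30. Each line is 1 window, and the 17 black lines differ by at least 0.1 between P0γ30 and S1γ30. A window enters the plot only where S1γ30 was listed in another table, so it shows the windows with a known level and not all 272.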

How the data were processed

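Rosette DNA was bisulfite sequenced for 9 groups of 5 samples. In CLC Genomics Workbench, the authors aligned reads against the TAIR10.31 genome, required a site coverage of 5 in at least 3 samples, and deposited, per group and window of 200 bp, the methylation level as a fraction. They adjusted p-values by the Benjamini-Hochberg method in R 3.5.0, and kept windows whose p was 0.05 or less and whose levels differed by 20% or more. Nearest genes (CLC) and nearest TEs (bedtools) are also theirs. Of 18 tables, 10 hold windows and 8 a header line alone. The deposited p-value, adjusted p-value, difference and status columns hold the authors' own comparison and were not used.

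Here, the fraction deposited for S2γ30 minus that for P0γ30 gave each difference. All 937 levels deposited more than once for a group and window agreed within 1e-06. CG sites, genes and sequences came from RefSeq TAIR10.1. For 231 of the 272 windows (84.9%), the listed gene name was found in RefSeq within 50 kb. Annotated promoters were 2000 bp upstream of the start of a protein-coding gene, for windows outside all such genes. Depth per sample is not in the tables, so the precision of a level is unknown, and no value could be tested.

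The windows and gene lists were chosen with earlier results of these data known. Named windows are the 10 largest changes in each direction, genes with 2 windows, the genes of the lists, windows of the first 6 Mb of chromosome 5 with a difference over 0.5, the largest TE increases and all TE decreases, the windows with most CG sites or smallest differences, the 10 largest differences among windows known in 4 groups or more, and every CHG window. The first and last window of the densest Mb were also named. Windows named outside these rules, as examples, include those in KIN10, MAPKKK6, AT5G02440, VDAC5, AT4G23050, 2-Cys Prx B and AT2TE06620 and that listed for SCRL5. Symbols of the lists that could not be matched to 1 gene numbered 10 for repair, 3 for methylation, 2 for chromatin, 9 for splicing and 1 for flowering. A window listed for a gene of the repair list is not reported here. Alternatives were a difference over 30%, every listed row, joined neighbours, windows of 3 or more CG sites, other level limits, other spans and annotated classes. Helper functions were tested on simulated sequences. Python 3.11.15 and NumPy 2.4.6 were used.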

Additional observations from a re-analysis of the deposited data

How the results depend on the processing

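No paired analysis was possible because the tables hold 1 level per group. For the same reason no sample could be left out, and replicate spread and depth are not covered by any value above. With a difference over 30% there were 109 hypermethylated and 64 hypomethylated windows, of which 47 lay in the first 6 Mb of chromosome 5, and with 3 or more CG sites there were 92 and 64. The share of hypermethylated windows stayed between 59.0% and 63.1% under all 4 alternatives, and that in the first 6 Mb of chromosome 5 between 24.6% and 27.6%. With 3 or more CG sites, 9 TE windows were hypermethylated and 2 hypomethylated, 59 windows were gene body and 61 promoter-associated. The annotation placed 221 windows in genes and 32 in promoters, whereas the listed classes went with the strand of the gene. With a high level of 0.7 and over, 50 hypermethylated windows were high in S2γ30 and 36 hypomethylated ones were high in P0γ30. The other 22 values stayed within 1.5 times the number reported or, for shares, within its binomial interval. That interval takes the windows as independent, which was not shown, and the alternatives count mostly the same windows. It is therefore a rough limit for a change and no test.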
